A study of Drosophila melanogaster with 20 samples.

Results

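The 129 transcripts described here were higher in the heads of flies with lowered ATM function in both of 2 settings, out of 15473 transcripts measured (0.834%). They were chosen on differences of mean level: at least 0.6 on the log2 scale (1.52-fold) in ATM8 homozygotes over ATM8 heterozygotes, and at least 0.6 in flies with ATM RNA interference in glia over their driver controls. Both arrays of the group with lowered ATM also had to lie above both control arrays. Because these values chose the members, the 2 differences are given below as a description with no test. The tests concern only the neuronal comparisons, whose arrays the choice did not use. Their estimate of the spread of each transcript, however, draws on all 20 arrays, including those that the choice used. Their standard errors and p-values are therefore not fully independent of the choice.

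Total RNA of adult Drosophila melanogaster heads was measured on 20 single-colour arrays, 1 per sample, over 8 genotypes that form 4 pairs. ATM8 homozygotes (ATM8/ATM8, 2 samples) were set against ATM8 heterozygotes (ATM8/+, 2 samples), both in the pp e1 background, so that the controls carry 1 copy of the allele. Repo-ATMi flies (Repo-GAL4/UAS-RNAiATM, 2 samples) were set against Repo-GAL4/+ flies (2 samples). Elav-ATMi flies (Elav-GAL4 on chromosome 2 with UAS-RNAiATM, 4 samples) were set against Elav-GAL4/+ flies (4 samples). ElavC155-ATMi flies (ElavC155-GAL4 on the X chromosome with UAS-RNAiATM, 2 samples) were set against ElavC155-GAL4/+ flies (2 samples). All driver and RNA interference flies had the w1118 background, and the driver controls carried no RNA interference transgene. The ATM8 flies were reared at 18°C until 0 to 3 days after eclosion, all others at 25°C, and every group was then held at 25°C for 3 days. The labels give 4 to 6 days of age for the driver groups and none for the ATM8 groups. Replicates are labelled biological with no word on separate cultures, and the p-values cover only how far these samples differed among themselves.

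ATM is a protein kinase that responds to DNA double-strand breaks. In people, loss of it causes ataxia-telangiectasia, a disease with progressive loss of neurons. GAL4 drivers place a UAS transgene under the control of a chosen promoter: repo is active in nearly all glia of the fly and elav in neurons. The title of the study names the glial innate immune response, in which insects make antimicrobial peptides through the Toll and Imd pathways.

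None of the members could be tied to a gene: the table identifies transcripts by FlyBase number only, and 0 of the 129 numbers were found in the gene table used here. The same held for 160 entries in 13 lists of immune, stress, DNA damage and cell type genes, of which 0 had a row that could be matched. Levels of tefu, the fly ATM gene, and of glial and neuronal markers are therefore not analysed here, and no member is given a role. No sequence is shown for the same reason. Members are named by their number where a result turns on them.

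In the comparisons that chose them, the members had a median difference of 0.86 in ATM8 homozygotes (range 0.61 to 4.08) and of 0.97 in Repo-ATMi flies (range 0.60 to 3.38). Over all transcripts the medians were 0.00 and -0.02. The glial difference was the larger for 74 members and the ATM8 difference for 55. At least 1.0 (2-fold) was reached by 49 members in ATM8 homozygotes, by 63 in Repo-ATMi flies and by 32 in both, and at least 2.0 (4-fold) by 10, 12 and 2.

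**Figure D1:**
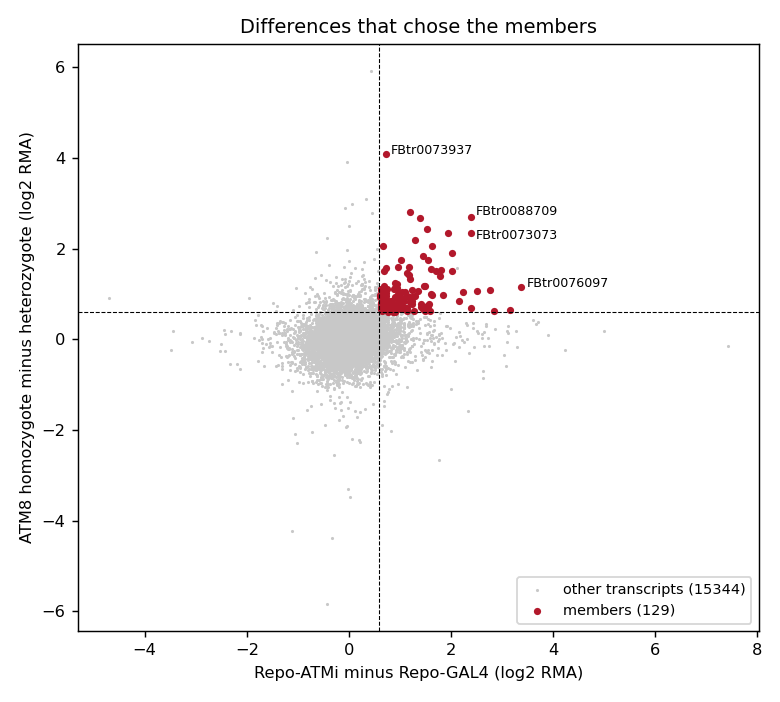
Difference in mean log2 RMA level between Repo-ATMi and Repo-GAL4 flies (horizontal) and between ATM8 homozygotes and heterozygotes (vertical) for each of 15473 transcripts, with the 129 members in red. The dashed lines mark 0.6, and the members fill the upper right corner from there up to 3.38 on the glial axis and 4.08 on the ATM8 axis.

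The 2 members with at least a 4-fold difference in both settings were FBtr0088709 and FBtr0073073. FBtr0088709 had log2 RMA levels of 12.26 and 11.50 in ATM8 homozygotes, against 9.99 and 8.39 in heterozygotes. In the glial pair its levels were 9.04 and 10.67 in Repo-ATMi flies, against 7.23 and 7.71 in Repo-GAL4 flies. The differences were 2.69 and 2.38, and the replicates of heterozygotes and of Repo-ATMi flies lay more than 1 log2 unit apart. FBtr0073073 stood at 13.89 and 14.24 in ATM8 homozygotes, against 11.45 and 11.97 in heterozygotes, and at 10.02 and 11.97 in Repo-ATMi flies, against 7.56 and 9.67 in Repo-GAL4 flies. Its differences were 2.35 and 2.39, and the 2 Repo-GAL4 arrays differed from each other by almost as much.

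Other members had a large difference in 1 setting and a small one in the other. FBtr0073937 stood at 10.20 and 10.03 in ATM8 homozygotes, against 6.02 and 6.04 in heterozygotes, the largest ATM8 difference of any member (4.08). Its glial difference was 0.73, with levels of 7.09 and 6.27 in Repo-ATMi flies, against 5.96 and 5.95 in Repo-GAL4 flies. FBtr0076097 had the largest glial difference (3.38), with 10.003 and 10.18 in Repo-ATMi flies, against 6.94 and 6.48 in Repo-GAL4 flies. In ATM8 homozygotes it stood at 8.80 and 9.42, against 8.09 and 7.81 in heterozygotes, a difference of 1.16. The replicates of these 2 transcripts lay close together next to the larger of their differences. The Repo-ATMi arrays of FBtr0073937, however, lay further apart than its glial difference of 0.73.

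The members just inside the threshold were FBtr0087277, with a smaller difference of 0.604, FBtr0071355 with 0.606 and FBtr0080284 with 0.607. Just outside lay FBtr0091496 with 0.597, FBtr0071390 with 0.596 and FBtr0073571 with 0.595, all without overlap of the arrays. In all, 1217 transcripts lay above their controls without overlap in both settings. With a threshold of 0.5 the list would hold 219 transcripts and with 0.8 it would hold 56. Quantile normalization of all 20 arrays gave 131 transcripts, 123 of them among the 129.

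Across the 8 genotypes the members did not share 1 control level. The median over members of the mean level was 10.85 in ATM8 homozygotes, against 9.73 in heterozygotes, and 9.57 in Repo-ATMi flies, against 8.56 in Repo-GAL4 flies. It was 9.70 in Elav-ATMi flies, against 9.53 in Elav-GAL4 flies, and 10.35 in ElavC155-ATMi flies, against 9.85 in ElavC155-GAL4 flies. The lowest of the 8 genotypes was Repo-GAL4 for 84 members (65.1%, and 20.6% of all transcripts), and the highest was the ATM8 homozygote for 69 members (53.5%, and 12.9% of all transcripts). The choice of members favours both outcomes, so they are a description. For 55 members the mean in Repo-ATMi flies lay below that in ATM8 heterozygotes, the controls of the other pair. The mean in Repo-GAL4 flies lay below that of heterozygotes for 109 members (84.5%), against 52.8% of all transcripts. The levels of both genotypes entered the choice of members, so this count too is only a description. Repo-GAL4 flies and heterozygotes differ in background, rearing temperature, the driver and the 1 copy of the ATM8 allele in heterozygotes, which cannot be told apart. In whole heads, fewer cells of a type and less RNA per cell cannot be told apart either.

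**Figure D2:**
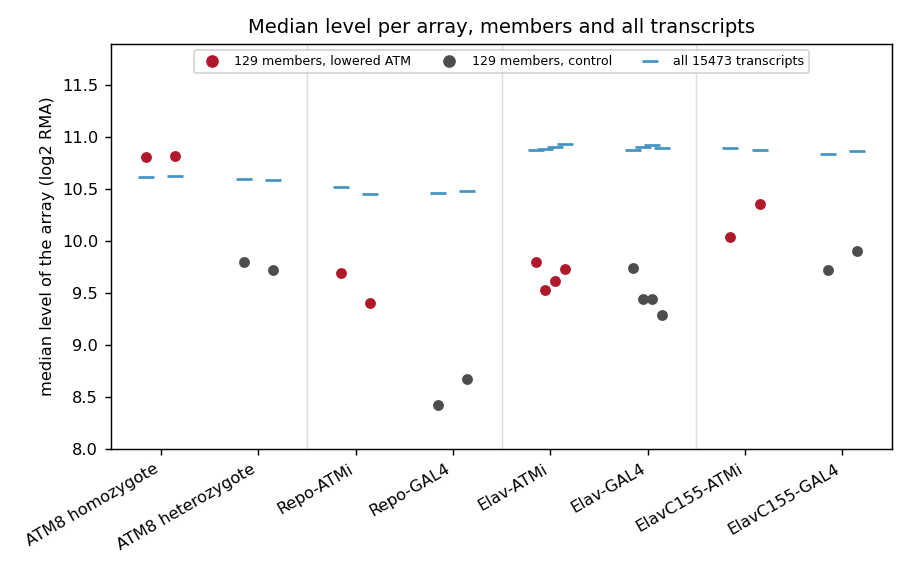
Median log2 RMA level on each array over the 129 members (dots, red for lowered ATM and grey for controls) and over all 15473 transcripts (blue bars), by genotype. Member medians are lowest on the Repo-GAL4 arrays (8.42 and 8.68) and highest on the ATM8 homozygote arrays (10.81 and 10.82), while the medians of all transcripts are lower on the 8 ATM8 and Repo arrays than on the 12 Elav and ElavC155 arrays.

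The arrays fall into 2 sets with different distributions of values: medians of all transcripts lay between 10.45 and 10.63 on the ATM8 and Repo arrays and between 10.84 and 10.93 on the Elav and ElavC155 arrays. Both comparisons that chose the members lie in 1 set and both neuronal comparisons in the other. Whether the members follow the ATM8 allele and glia, or that set of arrays, cannot be told apart. Each difference between an experimental genotype and its control stays within 1 set.

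**Figure D3:**
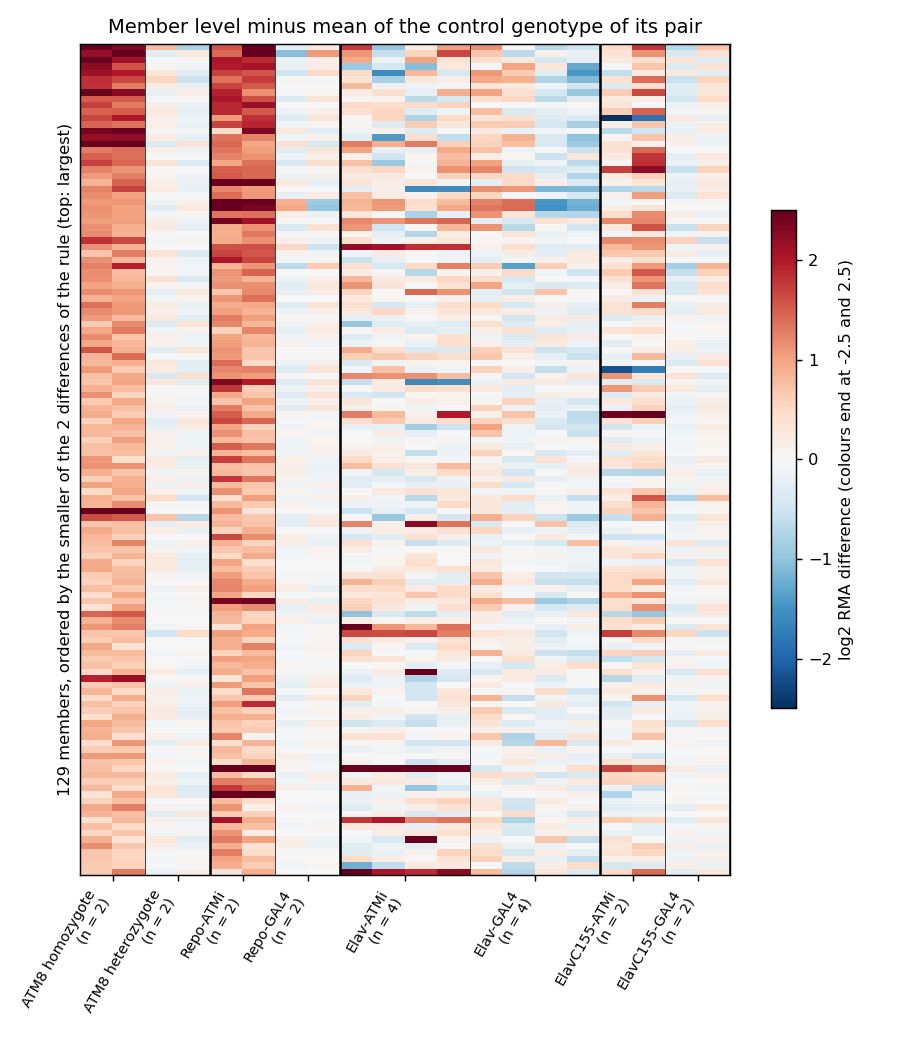
Log2 RMA level of each of the 129 members (rows, ordered by the smaller of their ATM8 and Repo differences) on each of the 20 arrays (columns, by genotype), minus the mean of the control genotype of the same pair. Red covers the ATM8 homozygote and Repo-ATMi columns by the choice of members, while the Elav-ATMi and ElavC155-ATMi columns are mixed, with a few deep red rows.

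With ATM interference under the Elav driver, 9 of the 129 members rose (6.98%) and 0 fell, where 1.01% of all transcripts rose and 0.608% fell (limma, adjusted p under 0.05 over all transcripts). At an unadjusted p under 0.05, 19 members were higher (14.7%, against 4.25% of all transcripts) and 4 lower (3.1%, against 4.91%). A difference of at least 0.6 upward was measured for 17 members (13.2%), against 2.75% of all transcripts. Downward, it was measured for 2 members (1.55%), against 1.09% of all transcripts. All 4 Elav-ATMi arrays lay above all 4 Elav-GAL4 arrays for 10 members (7.75%), against 2.31% of all transcripts, and below them for 0 members, against 2.7% of all transcripts. The members' median difference was 0.11, with quartiles of -0.09 and 0.34, against -0.01 over all transcripts. The 120 members that did not pass had a median of 0.07. With the Elav arrays fitted by themselves 8 members passed, all higher, and 0.743% of all transcripts passed in either direction.

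Same-numbered Elav samples deviated together, as did some of different number. With the number as a block 13 members passed, 12 higher and 1 lower, and 2.08% of all transcripts passed in either direction. With replicates 1 and 2 against 3 and 4 as the block 11 passed, 10 higher and 1 lower, and 2.18% of all transcripts did. The fall under the number block was that of FBtr0071682 (-0.82, adjusted p = 0.042 with that block and 0.70 without). The median of the members also depended on the replicates. It was -0.04 among replicates 1 and 2 of both genotypes, with 48.1% of members and 45.9% of all transcripts higher. Among replicates 3 and 4 it was 0.21, with 69.8% of members and 49.3% of all transcripts higher. It was 0.21 without Elav-GAL4 replicate 1 and 0.04 without Elav-GAL4 replicate 4.

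The largest of these rises was that of FBtr0077560. It stood at 9.99, 9.73, 8.80 and 8.70 in Elav-ATMi flies, against 5.27, 5.59, 5.74 and 6.09 in Elav-GAL4 flies, a difference of 3.63 ± 0.25 (SE, limma adjusted p = 2.28e-07). The 4 Elav-ATMi arrays all lay more than 2 log2 units above the controls. In Repo-ATMi flies it stood at 8.90 and 8.76, against 5.74 and 5.62 in Repo-GAL4 flies. Its levels in ATM8 homozygotes were only 5.95 and 5.72, against 5.23 and 5.17 in heterozygotes, a difference of 0.64 at a level near the bottom of the scale. In ElavC155-ATMi flies it stood at 10.59 and 10.29, but its level was already 9.10 and 8.71 in ElavC155-GAL4 flies (difference 1.54 ± 0.35, adjusted p = 0.075).

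FBtr0084235 was the 1 member that rose with both neuronal drivers. It stood at 9.62, 9.55, 9.77 and 9.89 in Elav-ATMi flies, against 8.20, 8.02, 8.80 and 8.68 in Elav-GAL4 flies (1.28 ± 0.15, adjusted p = 0.000108). In ElavC155-ATMi flies it stood at 10.34 and 10.36, against 9.19 and 9.11 in ElavC155-GAL4 flies (1.201 ± 0.21, adjusted p = 0.0132). The other levels were 8.70 and 8.70 in ATM8 homozygotes, against 7.82 and 7.51 in heterozygotes, and 9.69 and 9.40 in Repo-ATMi flies, against 7.34 and 7.27 in Repo-GAL4 flies. In each of the 4 pairs the arrays with lowered ATM lay above their controls without overlap, which the choice of members required in the ATM8 and Repo pairs. Its ElavC155 call was lost without any 1 of the 4 ElavC155 arrays, with adjusted p up to 0.14.

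FBtr0078025 rose by 2.00 ± 0.20 with the Elav driver (adjusted p = 1.72e-05). Its levels were 12.28, 12.18, 11.92 and 11.8999 in Elav-ATMi flies, against 10.19, 10.51, 9.81 and 9.79 in Elav-GAL4 flies. FBtr0087277 rose by 2.20 ± 0.30 (adjusted p = 0.00052), to 10.19, 9.53, 9.36 and 9.76 in Elav-ATMi flies, against 8.30, 6.77, 7.79 and 7.16 in Elav-GAL4 flies. The second of these is also the member nearest to the threshold in glia, where its difference was 0.60 at levels of 6.11 and 6.72 in Repo-ATMi flies, against 5.79 and 5.83 in Repo-GAL4 flies. Its level in ATM8 heterozygotes was 10.14 ± 0.23 (SD, n = 2), far above that in Repo-GAL4 flies.

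The 5 other rises were those of FBtr0088441 (1.59 ± 0.28, adjusted p = 0.00448), FBtr0088201 (1.56 ± 0.24, adjusted p = 0.00133), FBtr0088798 (1.62 ± 0.36, adjusted p = 0.0291), FBtr0070193 (1.07 ± 0.22, adjusted p = 0.0161) and FBtr0073353 (0.49 ± 0.11, adjusted p = 0.0351). FBtr0088798 was dim, at 8.20, 6.12, 5.85 and 6.398 in Elav-ATMi flies, against 5.004, 5.09, 4.82 and 5.18 in Elav-GAL4 flies. Fitting the Elav arrays by themselves ended its call (adjusted p = 0.24), as did leaving out any 1 Elav-GAL4 array or Elav-ATMi replicate 4 (adjusted p up to 0.088). The call of FBtr0073353 ended whichever 1 of the Elav arrays was left out (adjusted p up to 0.11). It also ended with quantile normalization (adjusted p = 0.051) and with trend and robust settings (adjusted p = 0.058), and held in 5 of 17 alternative settings. FBtr0070193 lost its call without Elav-GAL4 replicate 2 (adjusted p = 0.053). All 9 members that rose with the Elav driver had a difference above 0 with the ElavC155 driver, as did 71.3% of all members and 51.3% of all transcripts.

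**Figure D4:**
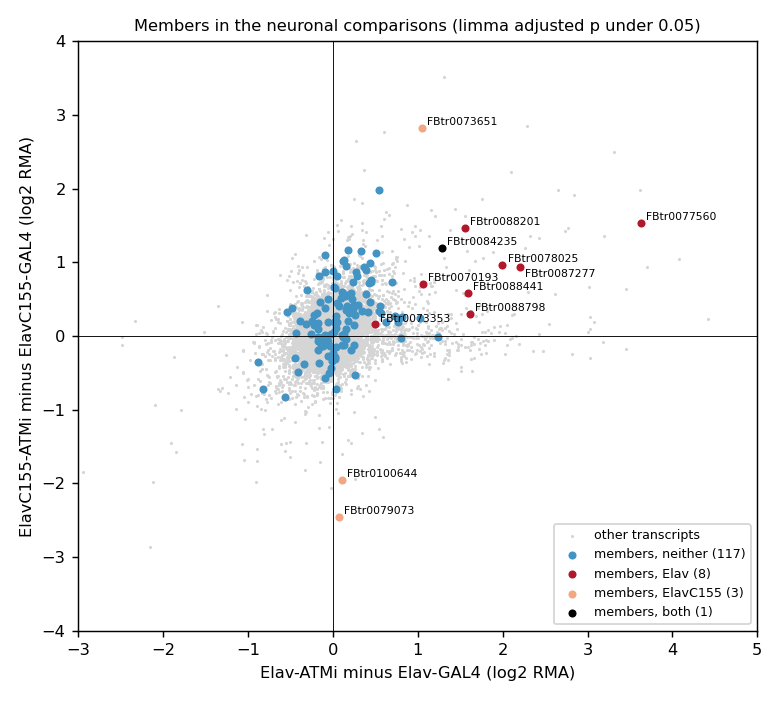
Difference in mean log2 RMA level between Elav-ATMi and Elav-GAL4 flies (horizontal) and between ElavC155-ATMi and ElavC155-GAL4 flies (vertical), for the members (coloured by limma call) and other transcripts (grey, a few beyond the axes). Of the members, 8 passed with Elav alone, 3 with ElavC155 alone, 1 with both and 117 with neither, and the unmarked members cluster around a point slightly above 0 on both axes.

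With the ElavC155 driver, 2 members rose (1.55%) and 2 fell (1.55%), where 0.33% of all transcripts rose and 0.174% fell (limma, adjusted p under 0.05). At an unadjusted p under 0.05, 25 members were higher (19.4%, against 3.52% of all transcripts) and 7 lower (5.43%, against 2.8%). A difference of at least 0.6 upward was measured for 33 members (25.6%), against 2.39% of all transcripts. Downward, it was measured for 5 members (3.88%), against 1.33% of all transcripts. Both ElavC155-ATMi arrays lay above both ElavC155-GAL4 arrays for 52 members (40.3%), against 19.3% of all transcripts, and below them for 22 members (17.1%), against 20.7%. The members' median difference was 0.28, with quartiles of -0.03 and 0.60, against 0.01 over all transcripts. It was 0.17 without ElavC155-ATMi replicate 2. Of the 4 calls, 0 remained when the ElavC155 arrays were fitted by themselves, and 0 remained without either of the ElavC155-GAL4 arrays. Without ElavC155-GAL4 replicate 1 the other members FBtr0071457 and FBtr0088201 passed instead. Without either of the ElavC155-ATMi arrays 1 of the 4 calls remained.

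FBtr0073651 had the largest rise with this driver, to 10.30 and 11.16 in ElavC155-ATMi flies, against 7.77 and 8.03 in ElavC155-GAL4 flies (2.83 ± 0.48, adjusted p = 0.0102). In Elav-ATMi flies it stood at 8.37, 7.88, 7.23 and 9.10, against 7.20, 7.81, 6.95 and 6.44 in Elav-GAL4 flies, where the groups overlapped (1.05 ± 0.34, adjusted p = 0.208). Its differences were 0.79 in ATM8 homozygotes and 1.23 in Repo-ATMi flies. The ElavC155 call held without ElavC155-ATMi replicate 1 and was lost without any other single ElavC155 array (adjusted p up to 0.16).

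The 2 members that fell with the ElavC155 driver were FBtr0079073 and FBtr0100644. FBtr0079073 stood at 10.46 and 11.70 in ElavC155-ATMi flies, against 13.78 and 13.30 in ElavC155-GAL4 flies (-2.46 ± 0.45, adjusted p = 0.0161). Its level in ElavC155-GAL4 flies was the highest of the 8 genotypes, with 10.43 ± 0.40 in Elav-GAL4 (n = 4), 9.28 ± 0.19 in ATM8 heterozygotes (n = 2) and 7.26 ± 0.47 in Repo-GAL4 (n = 2, SD each). FBtr0100644 stood at 7.07 and 7.52 in ElavC155-ATMi flies, against 9.28 and 9.23 in ElavC155-GAL4 flies (-1.96 ± 0.35, adjusted p = 0.0132). With the Elav driver these 2 members had differences of 0.07 ± 0.32 and 0.11 ± 0.25. The call of FBtr0100644 was lost without any 1 of the ElavC155 arrays (adjusted p from 0.055 to 0.19). That of FBtr0079073 held without ElavC155-ATMi replicate 2 and was lost without any of the others (0.077 to 0.26).

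**Figure D5:**
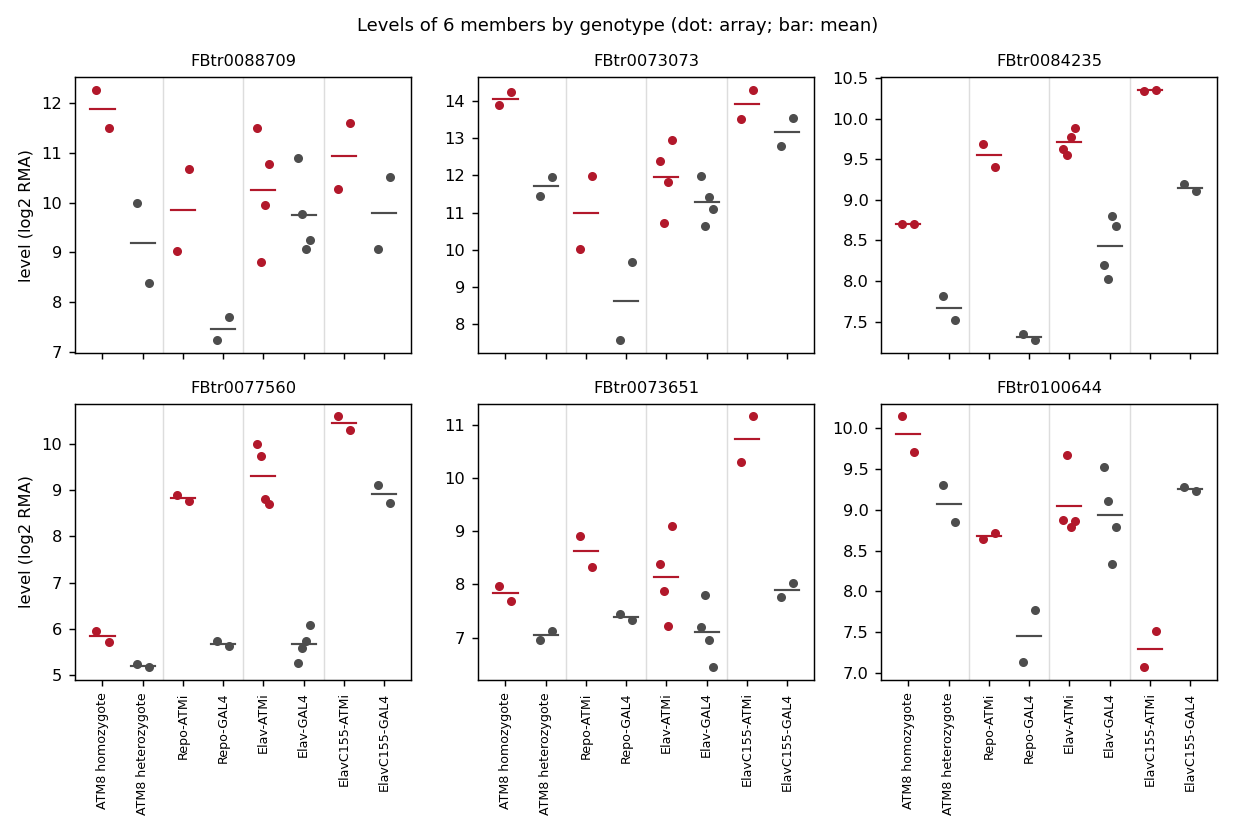
Log2 RMA levels of 6 members on every array (dots) with genotype means (bars), red for lowered ATM and grey for the control of the same pair. FBtr0088709 and FBtr0073073 spread widely within a genotype and overlap in the neuronal pairs. FBtr0084235 is higher in all 4 pairs, in the ATM8 and Repo pairs by the choice of members. FBtr0077560 averages 5.83 in ATM8 homozygotes and is at least 8.70 in all RNA interference flies, and FBtr0100644 is lower in ElavC155-ATMi flies.

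The difference between the neuronal effects was tested as an interaction. In limma, 0 members were more positive and 0 more negative with ElavC155 than with Elav, where 0.0323% and 0.0646% of all transcripts were. At an unadjusted p under 0.05, 9 members were more positive (6.98%, against 2.33% of all transcripts) and 8 more negative (6.2%, against 2%). Without Elav-ATMi replicate 3 FBtr0077560 and FBtr0079073 passed, and without ElavC155-GAL4 replicate 1 FBtr0071457 passed. The differences nearest to passing were -2.07 ± 0.43 for FBtr0100644 and -2.10 ± 0.43 for FBtr0077560 (both with an adjusted p of 0.103). Control levels differed between the 2 neuronal lines too: the mean in ElavC155-GAL4 flies lay above that in Elav-GAL4 flies for 84 members (65.1%), against 49.3% of all transcripts. Taking direction alone, 69 members (53.5%) were higher with both neuronal drivers, against 26.5% of all transcripts, and 21 (16.3%) were lower with both, against 28.3%.

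Members were also ranked by the smaller of their ATM8 and glial differences, and the first 10 had 1.51 to 2.38. Among them FBtr0073353 alone rose with the Elav driver in limma, a call that ended when any 1 Elav array was left out. With the ElavC155 driver 0 of the 10 passed, and FBtr0080811 alone had an unadjusted p under 0.05 (1.15 ± 0.51). FBtr0088709 stood at 11.49, 8.80, 9.95 and 10.78 in Elav-ATMi flies, against 10.89, 9.77, 9.07 and 9.25 in Elav-GAL4 flies (0.50 ± 0.59, adjusted p = 0.895). FBtr0073073 stood at 13.52 and 14.31 in ElavC155-ATMi flies, against 12.80 and 13.56 in ElavC155-GAL4 flies (0.73 ± 0.75, adjusted p = 1.00). The groups overlapped in both cases, and with standard errors of this size a 2-fold difference in these members was not detectable. The lowest difference of any member with the Elav driver was that of FBtr0079174 (-0.88 ± 0.31, adjusted p = 0.278), with 7.21, 7.98, 6.16 and 6.25 in Elav-ATMi flies, against 7.61, 8.01, 8.00 and 7.49 in Elav-GAL4 flies. In limma it passed as a fall with Elav replicates 3 and 4 alone (-1.54, adjusted p = 0.0075). It also passed without Elav-ATMi replicate 2 (-1.24, adjusted p = 0.015).

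The members also varied more than other transcripts between replicates of 1 genotype. Over the 12 Elav and ElavC155 arrays, which did not choose them, the median SD within genotypes was 0.327 for members and 0.193 for all transcripts, and 112 of the 129 members lay above that median. Among transcripts with a mean level between 8.19 and 11.17, which holds 65 members and 4215 transcripts in all, the medians were 0.326 and 0.218. The shares of all transcripts given beside the neuronal counts are not matched to the members for this spread or for level. In a typical pair these deviations moved together to a small degree. The median Pearson correlation between 2 members over the 12 arrays was 0.18, against 0.008 between any 2 transcripts. The levels themselves correlated at 0.9 or above for 123 of 8256 pairs of members (1.49%), against 0.244% of all pairs. Linked through such pairs, 53 members fell into 6 groups, the largest of 39, in which not every pair reached 0.9. The Elav calls FBtr0078025 and FBtr0073353 (r = 0.962) lie in that group. In another group the Elav call FBtr0077560 was linked with the Elav calls FBtr0084235 (r = 0.906) and FBtr0087277 (r = 0.905). Correlations of levels include the differences between genotypes. Such groups were not formed for all transcripts. The closest pair was FBtr0089324 and FBtr0089326 (r = 0.996), whose ATM8 differences were 1.08 and 1.07 and whose glial differences were 2.76 and 2.51. All pairs share the arrays and their normalization, and rows that measure transcripts of 1 gene cannot be recognised here, so the members are not independent of each other.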

How the data were processed

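The authors deposited log2 RMA levels, 1 column per array, for 15473 transcripts with 0 missing values. The method, RMA (background correction, normalization between arrays and summary of probes), comes from the submitters' processing notes. Its version, the annotation release and whether all arrays were normalized together were not given in the sources used here. The range of the deposited values shows the log2 scale.

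From these levels the members were chosen by differences of group means and non-overlap of arrays. The members and lists were chosen with earlier results of these data known. Tests were two-sided and used limma 3.58.1 (lmFit, eBayes; R 4.3.3) with a mean per genotype over all 20 arrays, 12 residual and 3.79 prior degrees of freedom, and Benjamini-Hochberg adjustment over all transcripts. Errors of differences are limma standard errors and errors of levels are SDs. The procedure was tested on simulated data. Arrays give no read depth, and their number limits the precision. The rule for names took the 10 members with the largest smaller difference, members called in a neuronal comparison, the extremes there and those nearest to the threshold. Only the few that a result turns on are printed. FBtr0073937, FBtr0076097, the closest pair and the members whose call changed with the block or without 1 array fall outside this rule and were chosen after their values were seen.

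Same-numbered Elav samples deviated together (correlations of 0.119, 0.172, 0.243 and 0.169), so an alternative fit took the numbers as pairs. Counts, standard errors and p-values come from the fit without pairs unless a block is named. The pairing rests on the data, not on the labels. Some samples of different number correlated as much: Elav-ATMi 4 with Elav-GAL4 3 at 0.389, 2 with 1 at 0.238, and 1 with 2 at 0.116. Replicates 1 and 2 against 3 and 4 were also used as a block. Alternatives were quantile normalization, array weights, trend and robust settings, leaving out the dimmest 25% of transcripts or 1 array, fits of the compared arrays and blocks.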

Additional observations from a re-analysis of the deposited data

Results flagged for a closer look

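Among 4 replicates, 1 array lay apart from the other 3 for 3 of the members named above, out of 28 groups of 4 arrays examined, and chance gives about 1 in 20. The gap to the nearest array was set against the whole range of the group, and exceeded Dixon's critical value for 4 samples in each case. FBtr0070193 had its lowest Elav-ATMi array at 9.10 (gap 0.847 of the range), with the others from 9.46 to 9.52, and all 4 lay above the Elav-GAL4 arrays. FBtr0088201 had its lowest Elav-ATMi array at 8.60 (gap 0.898), with the others from 8.96 to 9.0, again above all controls. FBtr0100644 had its highest Elav-ATMi array at 9.67 (gap 0.905), with the others from 8.79 to 8.88, inside the range of controls except for that array.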

How the results depend on the processing

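The count of members called with the Elav driver, 9 in the report, was 6 to 10 with any 1 Elav array left out. It was 7 to 13 under the other settings, all within 1.5 times. Which members passed changed more than the count. Replicates 1 and 2 alone kept 5 of the 9 calls and added 2 others, with 5 higher and 2 lower in all. Replicates 3 and 4 alone also kept 5 and added 6 others, with 10 higher and 1 lower. The count with ElavC155, 4 in the report, was 9 with array weights (all 4 and 5 others), 0 when the compared arrays were fitted by themselves and 0 to 2 with any 1 array left out, where 0 or 1 of the 4 remained. The 0 members whose neuronal effects differed became 1 with array weights and 1 with the replicate block (FBtr0100644 in both), and 0 to 2 with any 1 array left out. Members numbered 219 and 56 with thresholds of 0.5 and 0.8, and 118 to 166 with any 1 array left out. The median differences moved by less than the spread between replicates throughout, and that with Elav changed sign in replicates 1 and 2 alone (-0.04). With the replicate number as a block, FBtr0088201 passed with ElavC155 (adjusted p = 0.026). Outside Elav, with 2 pairs each, the samples share only a number: same-number correlations were 0.262 in ATM8, -0.140 in Repo and 0.509 in ElavC155. A crossed pairing would leave the mean differences of the Repo pair as they are. Besides the calls named here and in the report, the block changed FBtr0074670 (0.56, adjusted p = 0.011), FBtr0076885 (1.24, 0.020) and FBtr0084493 (0.77, 0.0090) with Elav, and no other call. No named member that passed a neuronal test reversed under any setting run. Of the members, 21 lie among the dimmest 25% of transcripts, under a mean level of 7.66, where RMA levels carry no detection flag.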
